A study of Homo sapiens with 20 samples.

Results

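Histones are the proteins around which DNA is wound, and the replication-dependent histone genes supply them while the genome is copied. Expression of 58 of these genes, among 18417 genes measured, was followed in B5/589, human mammary epithelial cells made immortal in culture, in which doxycycline switches on a p53 transgene. The rule that chose the genes was set with earlier results of these data known. It took, by symbol, those that start with H2AC, H2BC, H3C or H4C and a digit, or that run from H1-1 to H1-6. The array annotation held 72 such symbols. Of these, 14 stood only on transcript clusters (the probes of 1 transcription unit) that carry several symbols, and they are not analysed here. The 58 genes comprised 6 of linker histone H1 and 14 of H2A, 17 of H2B, 8 of H3 and 13 of H4, the 4 core classes. H4C14 and H4C15 had identical values on every array, so there were 57 distinct measurements, and H2BC19P is annotated as a pseudogene.

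Replication-dependent histone genes lie mostly in clusters, and each class has many copies that encode nearly the same protein. They are transcribed in S phase, when cyclin E with CDK2 phosphorylates NPAT, their shared coactivator. Their mRNAs end in a stem-loop in place of a poly(A) tail, and SLBP binds that stem-loop for processing, translation and decay. The mRNAs are lost when DNA synthesis stops. p53 is known as an inducer of CDKN1A, an inhibitor of cyclin-dependent kinases.

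Total RNA was labelled with a kit that primes along whole transcripts and was hybridised to 20 Affymetrix arrays, 4 in each of 5 groups. Every group, the control included, carries the inducible p53 transgene. Control cells received 0 ng of doxycycline for 24 h. Induced cells received 3 ng or 5 ng for 12 h or for 24 h. The labels give the dose with no volume, do not say whether the line is 1 clone or which promoter drives the transgene, and give no 0 ng sample at 12 h. Whether the 4 arrays of each group stand for independent cultures is not stated either, so p-values measure only the spread among these arrays, which may be technical.

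CDKN1A and MDM2, which p53 activates, served as a check of the induction. CDKN1A was higher than at 0 ng by 0.72 ± 0.14 (SE) on the log2 scale at 3 ng and by 1.44 ± 0.14 at 5 ng after 24 h, and MDM2 by 0.18 ± 0.15 and 0.47 ± 0.15. All but the MDM2 value at 3 ng passed an adjusted p of 0.05 (limma), and that value passed after quantile normalization (0.48, adjusted p = 1.4e-06). The 6 epithelial markers measured had mean log2 signals from 9.75 to 12.66, against -0.47 to 3.19 for 2 immune, 1.64 to 4.05 for 3 endothelial, 4.23 to 6.20 for 4 fibroblast and 4.13 to 4.74 for 2 adipocyte markers. Array medians ran from 4.54 to 5.54, and the median gene was lower than at 0 ng by -0.23 (3 ng) and -0.24 (5 ng) at 24 h as deposited. After quantile normalization between arrays these shifts were 0.08 and 0.07, so quantile-normalized results stand beside the deposited ones where they differ. Replicate 4 at 0 ng was the highest of its group for 49 of the 58 histone genes, and replicate 2 of 3 ng at 12 h for 55. These 2 arrays also had the highest medians of their groups, 5.28 and 5.54. Replicate 1 of 5 ng at 12 h was the lowest of its group for 45 histone genes, and replicate 3 of 3 ng at 12 h for 37. Such shares were not counted over all genes.

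Promoter sequences are shown for the gene with the largest fall at 5 ng in each core class (H2BC14, H3C2, H4C13 and H2AC4) and for 3 H2B genes that did not fall at both doses (H2BC11, H2BC12 and H2BC21). They are the 150 bases just before the transcription start, read in the direction of the gene, from RefSeq (GRCh38.p14). The windows are chr6:27814872-27815021 on the plus strand for H2BC14, and on the minus strand chr6:26032100-26032249 for H3C2, chr6:27873535-27873684 for H4C13 and chr6:26033619-26033768 for H2AC4. The other minus-strand windows are chr6:27132796-27132945 for H2BC11, chr6:27146859-27147008 for H2BC12 and chr1:149886683-149886832 for H2BC21. Capitals mark matches on either strand to TATAAA (the TATA box), CCAAT (the CCAAT box), ATTTGCAT (the octamer bound by POU factors) and GGTCCG (the core of site II of H4 promoters). In H2BC21 a GGTCCG match on the other strand overlaps a CCAAT match.
H2BC14: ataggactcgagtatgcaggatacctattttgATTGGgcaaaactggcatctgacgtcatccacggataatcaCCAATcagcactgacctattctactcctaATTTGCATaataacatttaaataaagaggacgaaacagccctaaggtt
H3C2: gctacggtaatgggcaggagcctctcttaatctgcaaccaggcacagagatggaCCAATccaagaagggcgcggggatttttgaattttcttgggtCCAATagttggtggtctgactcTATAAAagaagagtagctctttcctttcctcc
H4C13: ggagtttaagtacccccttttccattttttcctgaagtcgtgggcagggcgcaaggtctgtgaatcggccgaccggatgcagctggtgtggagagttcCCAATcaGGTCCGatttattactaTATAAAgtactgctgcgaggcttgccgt
H2AC4: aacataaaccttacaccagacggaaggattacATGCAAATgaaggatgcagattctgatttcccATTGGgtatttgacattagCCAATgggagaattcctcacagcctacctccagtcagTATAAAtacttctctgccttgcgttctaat
H2BC11: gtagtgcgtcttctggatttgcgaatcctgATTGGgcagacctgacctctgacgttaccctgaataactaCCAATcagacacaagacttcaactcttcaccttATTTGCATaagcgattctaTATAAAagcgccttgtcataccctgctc
H2BC12: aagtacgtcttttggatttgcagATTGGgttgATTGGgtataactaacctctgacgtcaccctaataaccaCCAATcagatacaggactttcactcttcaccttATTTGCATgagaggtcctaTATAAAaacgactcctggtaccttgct
H2BC21: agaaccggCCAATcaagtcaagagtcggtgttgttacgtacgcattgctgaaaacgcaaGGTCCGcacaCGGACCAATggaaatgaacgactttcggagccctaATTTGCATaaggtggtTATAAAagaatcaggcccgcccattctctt

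RefSeq promoters matched 52 of the 58 genes, 44 on chromosome 6, 7 on chromosome 1 and 1 on chromosome 12. Within 250 bases before the start, TATAAA was found in 34 of the 52 (65.4%), against 10.7% of the 35116 promoters in the table. CCAAT was found in 44 of the 52 against 32.0% of all promoters, and in each of the H1, H2A, H2B and H3 promoters matched but in 3 of 11 for H4. The octamer was found in 10 of 13 H2A and 13 of 16 H2B promoters, in none of the H1, H3 and H4 promoters, and in 1.63% of all. GGTCCG was found in 10 of 11 H4 promoters and in 9.43% of all. Among H2B promoters the octamer was found in 8 of the 9 whose genes fell at both doses and in 5 of the 7 whose genes did not. A match is a run of letters only, and no binding was measured.

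After 24 h of induction most of the replication-dependent histone genes analysed were lower at both doses, and the 8 of H3 were lower without exception. H3C4, H3C6, H3C13, H3C14 and H3C15 were among the symbols not analysed. At 3 ng, 47 of 58 were called lower than at 0 ng (limma, adjusted p under 0.05 over all genes), where 23.0% of all 18417 genes were called lower, and no histone gene was called higher. At 5 ng, 44 were called lower against 23.5% of all genes, and 2 were called higher against 4.52%. The 4 induced and 4 control arrays did not overlap, with the induced arrays lower, for 48 genes at 3 ng (27.9% of all genes) and 45 at 5 ng (27.0%), and the induced arrays lay higher for 1 gene at 5 ng (4.94%). The median change over the 58 genes was -2.19 at 3 ng and -2.44 at 5 ng on the log2 scale. After quantile normalization the calls were 45 lower and 2 higher at 3 ng, against 12.5% and 15.4% of all genes, and 44 lower and 4 higher at 5 ng, against 17.2% and 20.6%.

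The 44 genes called lower at 5 ng were all among the 47 called at 3 ng, and both comparisons share the 0 ng arrays. How many of all genes were called lower at both doses was not counted, and their share cannot exceed the 23.0% called at 3 ng. Histone genes made up 22 of the 100 largest falls of all genes at 3 ng and 14 of the 100 largest at 5 ng. They were 58 of the 18417 genes ranked, with H4C14 and H4C15 ranked as separate genes despite their identical values. Fewer cells making histone mRNA and less of it in each cell cannot be told apart in bulk RNA. Copies within a class have nearly the same coding sequence, so a cluster may also report the RNA of another copy, and how far each cluster does so was not tested.

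**Figure D1:**
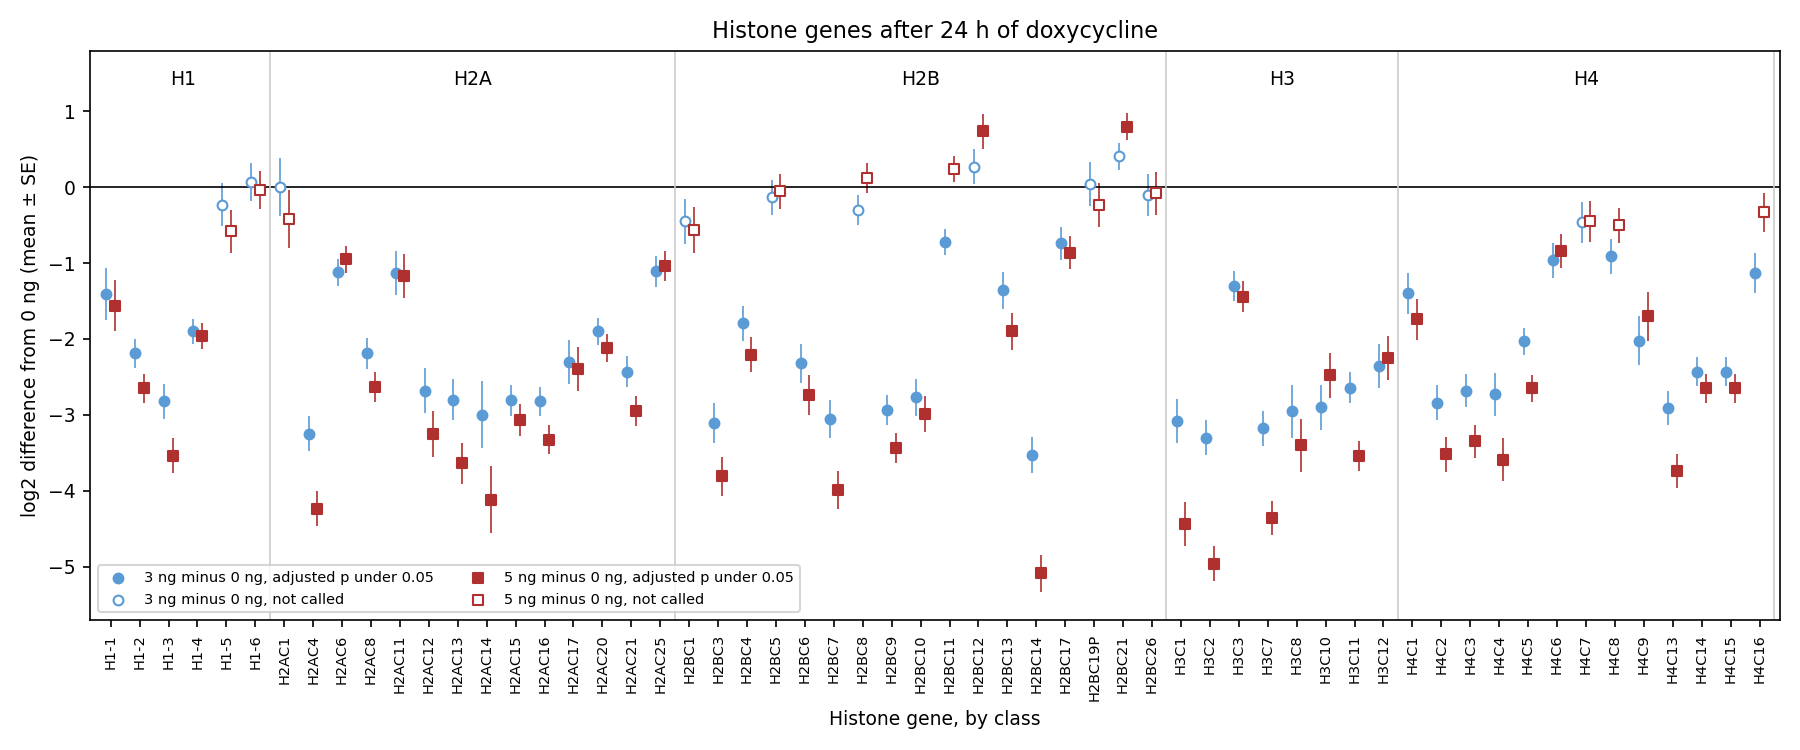
Log2 difference from 0 ng (mean ± SE of the model, 4 arrays a group) for the 58 histone genes after 24 h at 3 ng (blue circles) and 5 ng (red squares), by class, with filled symbols for an adjusted p under 0.05. All 8 H3 genes lie below 0 at both doses, while H2BC12 and H2BC21 lie above 0.

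H3 genes encode a core histone that carries many of the modified residues of chromatin. All 8 fell at both doses, where 23.0% and 23.5% of all genes were called lower at 3 ng and 5 ng. The falls were between 1.30 and 3.30 at 3 ng and between 1.44 and 4.96 at 5 ng on the log2 scale. The class median was -2.92 and -3.47, against -0.23 and -0.24 over all genes. H3C2 read 10.47, 10.59, 10.30 and 10.84 on the 0 ng arrays, 7.45, 7.41, 6.95 and 7.17 at 3 ng, and 5.49, 5.75, 5.25 and 5.86 at 5 ng. The 3 groups did not overlap. The difference from 0 ng was -3.30 ± 0.23 at 3 ng (9.88-fold lower, adjusted p = 5e-09) and -4.96 ± 0.23 at 5 ng (31.2-fold, adjusted p = 2.6e-12, limma). H3C1 fell by 4.44 ± 0.29 at 5 ng and H3C7 by 4.36 ± 0.23, and H3C3 had the smallest fall of the class at both doses.

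H4 genes encode the partner of H3 in the nucleosome core. Of 13, 12 were called lower at 3 ng and 10 at 5 ng, where 23.0% and 23.5% of all genes were. The class medians were -2.03 and -2.65, against -0.23 and -0.24 over all genes. H4C13 read 8.53, 8.67, 8.30 and 8.96 at 0 ng, 5.84, 5.79, 5.44 and 5.76 at 3 ng, and 4.44, 5.23, 4.76 and 5.07 at 5 ng. Every array at 5 ng was below every array at 3 ng, and these below every control. H4C13 fell by 3.74 ± 0.22 at 5 ng (13.4-fold, adjusted p = 5.3e-11, limma), followed by H4C4 at 3.59 ± 0.28 and H4C2 at 3.52 ± 0.23. H4C8 and H4C16 fell at 3 ng, by 0.91 ± 0.23 and 1.13 ± 0.26, and had differences of -0.50 ± 0.23 and -0.33 ± 0.26 at 5 ng that did not pass. H4C8 did not pass at 3 ng after quantile normalization either (-0.49, adjusted p = 0.057). H4C7, at a group mean of 2.24 in controls, did not pass at either dose.

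H2A genes encode the partner of H2B. Of 14, 13 fell at both doses, with class medians of -2.37 and -2.79, and H2AC1, a gene known for expression in testis, did not pass. Of all genes, 23.0% were called lower at 3 ng and 23.5% at 5 ng. The medians over all genes were -0.23 and -0.24. H2AC4 read 10.02, 9.97, 9.74 and 10.34 at 0 ng, 6.63, 6.78, 6.67 and 7.0 at 3 ng, and 5.33, 5.91, 5.91 and 5.94 at 5 ng, again with no overlap between groups. It fell by 3.25 ± 0.23 at 3 ng and by 4.24 ± 0.23 at 5 ng (19-fold, adjusted p = 1.7e-11, limma). H2AC14 fell by 4.12 ± 0.44 at 5 ng from a dim control level, 3.05, 3.25, 3.14 and 4.32, and its arrays at 5 ng spread from -1.74 to 0.39. H2AC6, one of the histone genes known to give polyadenylated transcripts as well, fell by 1.12 ± 0.18 and 0.95 ± 0.18, the smallest fall among the H2A genes called at 5 ng.

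H2B genes encode the partner of H2A. Of 17, 10 fell at 3 ng and 9 at 5 ng, where 23.0% and 23.5% of all genes were called lower. The class medians were -0.74 and -0.86, against -0.23 and -0.24 over all genes. The 2 histone genes called higher at 5 ng, where 4.52% of all genes were, belong to this class. H2BC14 had the largest fall of all the histone genes. It read 11.08, 11.38, 11.23 and 11.66 at 0 ng, 8.10, 8.0, 7.28 and 7.84 at 3 ng, and 6.36, 6.70, 5.79 and 6.14 at 5 ng, with no overlap. The fall was 3.53 ± 0.24 at 3 ng (11.6-fold, adjusted p = 4.1e-09) and 5.09 ± 0.24 at 5 ng (34.1-fold, adjusted p = 3.7e-12, limma). H2BC7 and H2BC3 fell by 3.99 ± 0.25 and 3.81 ± 0.26 at 5 ng. H2BC17 passed at 3 ng with the smallest fall of those called at both doses (-0.74), and that call was lost without 0 ng replicate 4 or without 3 ng replicate 3.

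Linker H1 genes encode the histone that binds DNA between nucleosomes. Of 6, H1-1, H1-2, H1-3 and H1-4 fell at both doses, where 23.0% and 23.5% of all genes were called lower at 3 ng and 5 ng. H1-3 read 8.94, 8.80, 8.05 and 9.03 at 0 ng, 5.87, 6.06, 5.85 and 5.77 at 3 ng, and 5.02, 5.14, 4.84 and 5.66 at 5 ng, so that the highest of the 5 ng arrays stayed under the lowest of the 3 ng arrays. It fell by 2.82 ± 0.23 and 3.54 ± 0.23. H1-2 fell by 2.65 ± 0.19 and H1-4 by 1.96 ± 0.17 at 5 ng. H1-5 and H1-6, the latter known for expression in testis, had control means of 1.60 and 1.61 and did not pass at either dose. The class medians were -1.66 and -1.76, against -0.23 and -0.24 over all genes. Differences between classes were not tested, because the members of a class are not replicates.

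**Figure D2:**
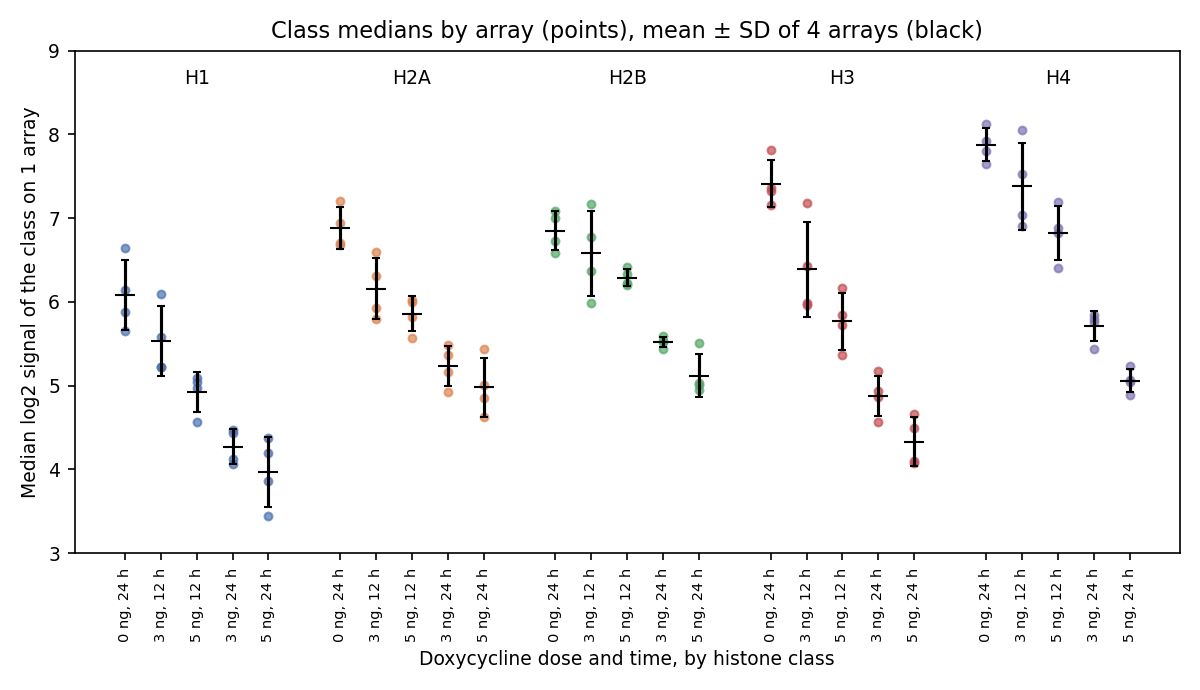
Median log2 signal of each histone class on each array (points), with the mean ± SD of 4 arrays (black), in the 5 dose and time groups. The H3 median went from 7.41 at 0 ng to 4.88 at 3 ng and 4.33 at 5 ng after 24 h, and the 12 h groups lie between.

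Of the 58 genes, 14 were not called lower at both doses after 24 h, and 7 of these belong to the dimmest 30% of all genes. The other 7 were H4C8 and 6 H2B genes: H2BC5, H2BC8, H2BC11, H2BC12, H2BC21 and H2BC26. H2BC21 read 7.42, 6.89, 7.27 and 7.75 at 0 ng, 7.74, 7.88, 7.69 and 7.67 at 3 ng, and 8.30, 7.96, 8.08 and 8.20 at 5 ng. Every 5 ng array was above every control, while 3 ng and 0 ng overlapped. H2BC21 rose by 0.80 ± 0.18 at 5 ng (1.74-fold, adjusted p = 0.0022, limma), and its difference at 3 ng was 0.41 ± 0.18 (adjusted p = 0.11), or 0.84 with an adjusted p of 4.5e-05 after quantile normalization.

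H2BC12 read 7.90, 7.27, 7.29 and 8.06 at 0 ng, 7.99, 7.95, 8.0 and 7.67 at 3 ng, and 8.49, 8.04, 8.13 and 8.81 at 5 ng, where 1 array lay under the highest control. It rose by 0.74 ± 0.23 at 5 ng (adjusted p = 0.019, limma). That call was lost without 0 ng replicate 2 or 3, or without 5 ng replicate 1 or 4, at values from 0.59 to 0.70. At 3 ng the H2BC12 difference was 0.27 ± 0.23, or 0.72 with an adjusted p of 0.00057 after quantile normalization. H2BC5, H2BC8 and H2BC26 had differences between -0.30 and 0.12 at both doses, none of which passed as deposited. H2BC8 passed as higher at 5 ng after quantile normalization (0.48, adjusted p = 0.029).

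H2BC11 differed between the doses. It read 6.30, 6.36, 6.43 and 6.79 at 0 ng, 5.53, 5.44, 5.94 and 6.09 at 3 ng, and 6.72, 6.44, 6.82 and 6.85 at 5 ng. The 3 ng arrays were below all others, and 5 ng and 0 ng overlapped. H2BC11 fell by 0.72 ± 0.17 at 3 ng (adjusted p = 0.0042) and had a difference of 0.24 ± 0.17 at 5 ng (adjusted p = 0.35, limma). After quantile normalization the difference at 3 ng was -0.38 (adjusted p = 0.072) and at 5 ng 0.58 (adjusted p = 0.0051), so its side of the threshold in each comparison with 0 ng turned on the scaling.

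**Figure D3:**
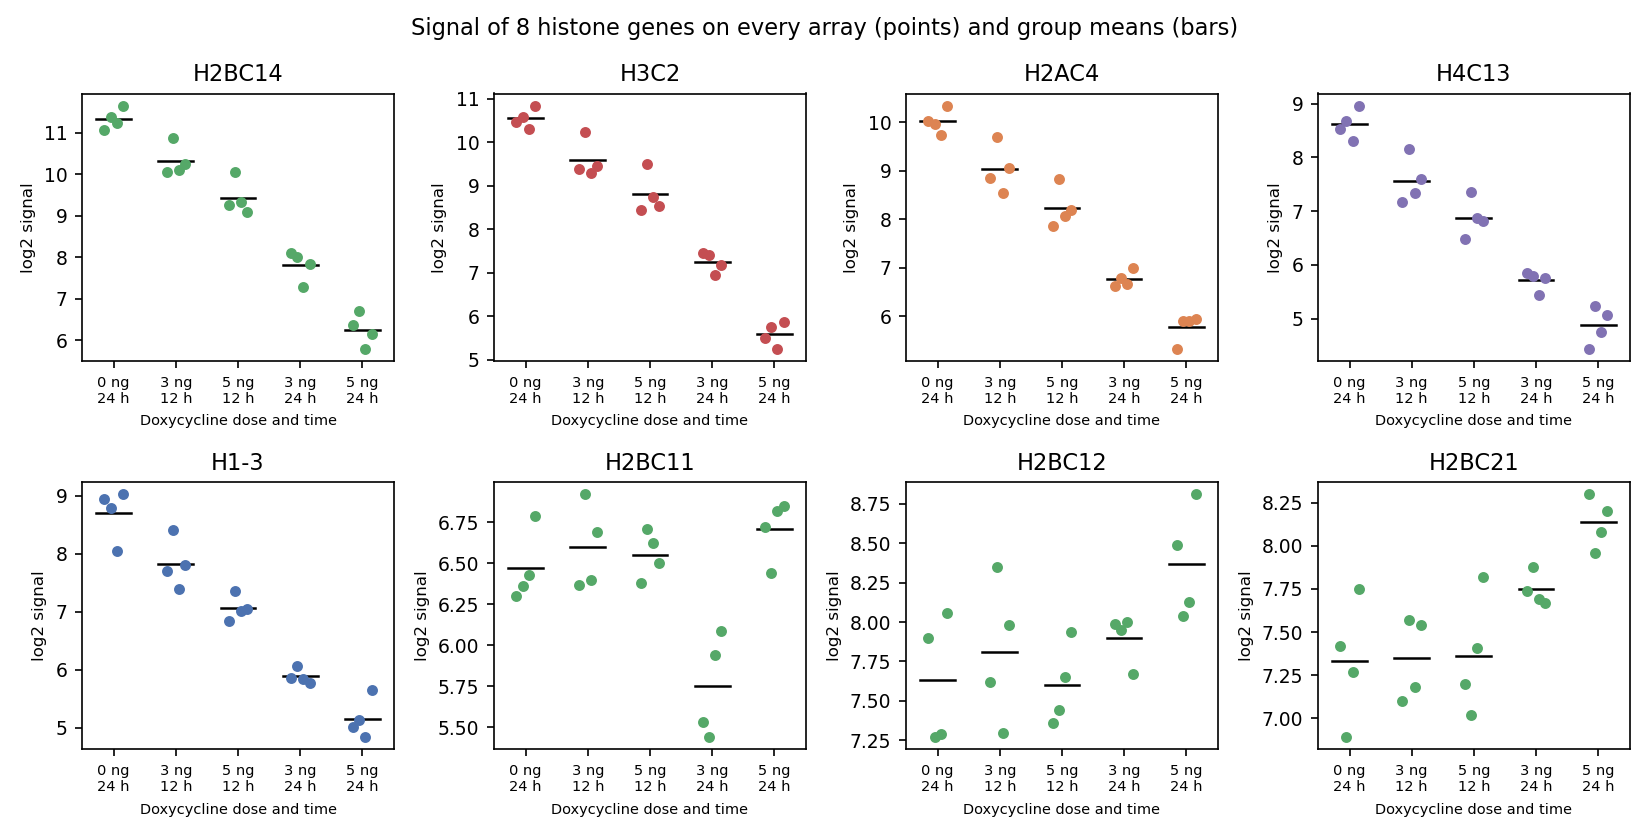
Log2 signal of 8 histone genes on each array (points) with group means (bars) in the 5 dose and time groups; each panel has its own axis. H2BC14, H3C2, H2AC4, H4C13 and H1-3 step down from 0 ng to 12 h to 24 h, H2BC11 is lowest at 3 ng and 24 h, and H2BC12 and H2BC21 are highest at 5 ng and 24 h.

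A list of members known to give polyadenylated transcripts as well held H1-2, H2AC6, H2BC4, H2BC5, H2BC12 and H2BC21. H1-2, H2AC6 and H2BC4 fell at both doses, H2BC5 did not pass at either, and H2BC12 and H2BC21 were the 2 that rose at 5 ng. Of all genes, 23.0% were called lower at 3 ng and 23.5% at 5 ng, and 4.52% were called higher at 5 ng. The median of the 6 was -0.63 at 3 ng and -0.50 at 5 ng, and -0.20 and -0.13 after quantile normalization. Among 4 testis-enriched members, H1-1, H1-6, H2AC1 and H2BC1, only H1-1 fell. That is 1 of 4, close to the 23.0% and 23.5% of all genes called lower. Their control means were 4.87, 1.61, 2.96 and 0.54, and a dim gene may be at background.

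Many H2A and H2B genes stand head to head, on opposite strands with their starts close together. Among the matched members, 9 such H2A and H2B pairs had starts 215 to 248 bases apart, so that each pair shares 1 stretch of promoter. Both genes fell at both doses in 4 pairs, the H2A gene alone in 4, the H2B gene alone in 0 and neither in 1. H2AC20, which lies 236 bases from H2BC21, fell by 1.90 at 3 ng and 2.12 at 5 ng, while H2BC21 rose at 5 ng, so the H2BC21 bases shown above lie within the promoter stretch of a gene that fell. H2AC8 fell by 2.63 at 5 ng beside H2BC8 at 0.12, H2AC25 by 1.04 beside H2BC26 at -0.08, and H2AC11 by 1.17 beside H2BC11 at 0.24. In the H2AC14 and H2BC14 pair the falls at 5 ng were 4.12 and 5.09, and in H2AC6 and H2BC4 they were 0.95 and 2.21. Partners were not tested against each other. On chromosome 1, 5 of 7 matched members fell at both doses, as did 34 of 44 on chromosome 6, and H4C16 on chromosome 12 did not. The chromosomes were not tested against each other. The share of all genes that fell at both doses was not counted, and it cannot exceed the 23.0% called lower at 3 ng.

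The doses were also set against each other directly, and 4 of the 7 genes lower at 5 ng than at 3 ng belong to H3. At 24 h, 7 of 58 histone genes were lower at 5 ng than at 3 ng, where 0.755% of all genes were called lower, and 1 was higher, where 1.79% were. The 7 were H3C2 (-1.66 ± 0.23, adjusted p = 0.00031), H2BC14 (-1.56 ± 0.24, adjusted p = 0.00069), H3C1 (-1.36 ± 0.29), H3C7 (-1.18 ± 0.23), H2AC4 (-1.0 ± 0.23), H3C11 (-0.90 ± 0.20) and H4C13 (-0.83 ± 0.22, adjusted p = 0.05 after rounding, limma). H2BC11 was the gene that rose between the doses, by 0.96 ± 0.17 (1.94-fold, adjusted p = 0.0023), with no overlap. Of the 44 genes that fell at both doses, 38 had a lower mean at 5 ng than at 3 ng and 6 did not. The 44 were picked with these same arrays, and the split was not counted over all genes. The median difference was -0.31 over the 58 genes, against 0.00 over all genes. In 18 genes every 5 ng array was below every 3 ng array, as in 2.90% of all genes, and in 4 every 5 ng array was above, as in 8.31%.

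The count of 7 was sensitive to single arrays and to scaling. It was 4 without 5 ng replicate 1, while quantile normalization gave 16 lower and 2 higher, against 4.42% and 5.96% of all genes. Those 16 were 5 of H4, 4 of H3, 3 of H2A, 3 of H2B and 1 of H1, so H3 no longer made up most of the count. H2AC4, H3C11 and H4C13 lost their calls when 3, 4 and 7 of the 8 arrays compared were left out in turn, and H3C2, H2BC14, H3C1 and H3C7 kept theirs each time.

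**Figure D4:**
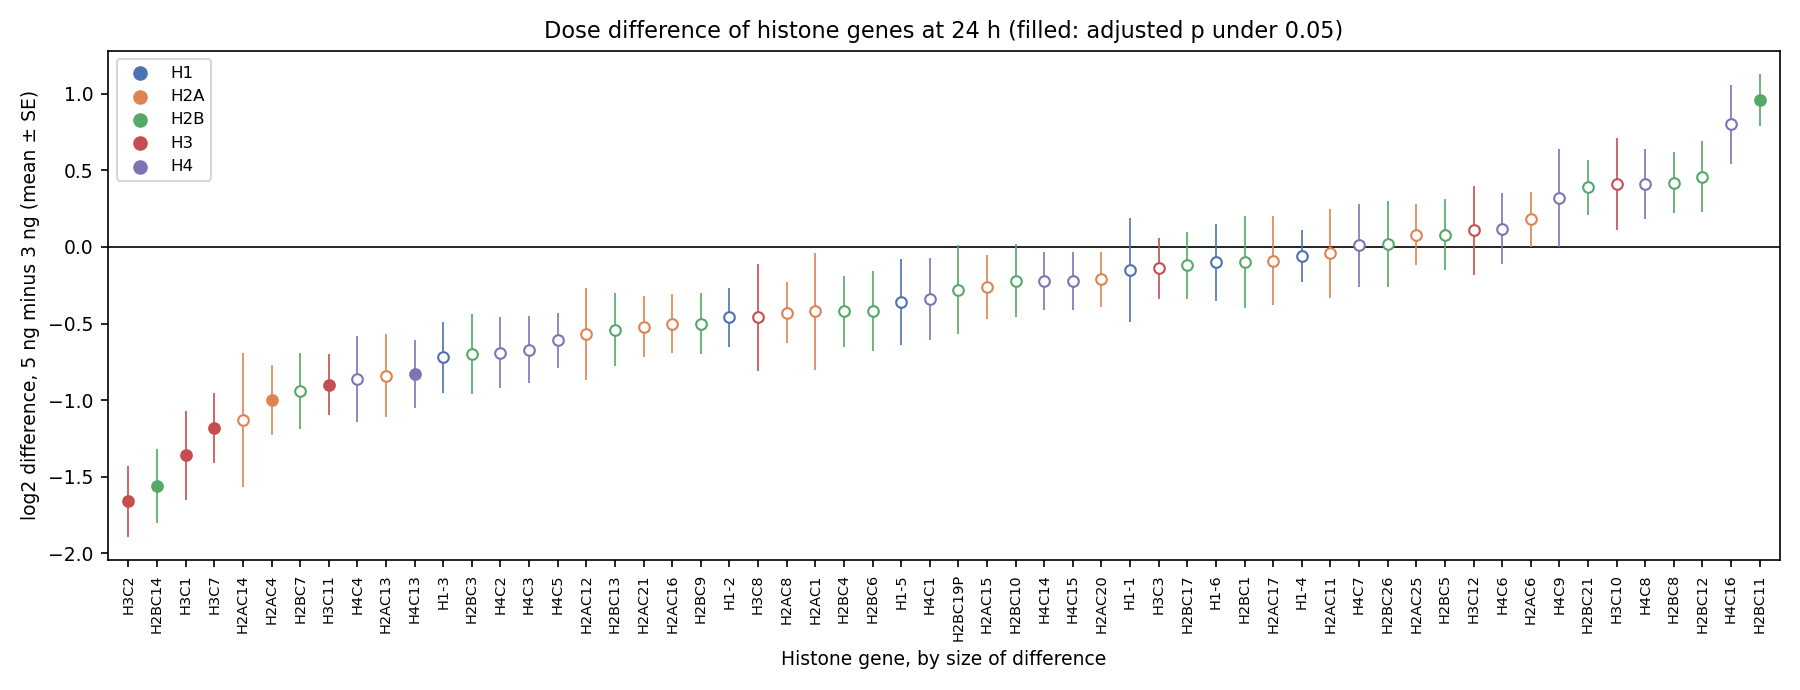
Log2 difference between 5 ng and 3 ng at 24 h (mean ± SE of the model, 4 arrays a group) for the 58 histone genes, ordered by size and coloured by class, with filled points for an adjusted p under 0.05. H3C2 and H2BC14 have the lowest values and H2BC11 the highest.

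The earlier groups were set against the 24 h control, the only 0 ng group, so time and doxycycline both differ in these comparisons and cannot be told apart. At 5 ng, 41 of 58 histone genes were lower after 12 h, where 11.5% of all genes were called lower, and none was higher, where 3.44% were. After quantile normalization 41 were lower and none higher, against 14.3% and 11.5% of all genes. All 41 were also lower at both doses after 24 h, but these comparisons share the 0 ng arrays. The same overlap was not counted over all genes, and its share cannot exceed 11.5%. All 8 H3 genes were among the 41, with H3C1 at -1.97 ± 0.29, and H2BC14 had a difference of -1.90 ± 0.24 (adjusted p = 1.8e-05, limma). H2BC14 read 9.25, 10.07, 9.33 and 9.10 after 12 h at 5 ng, all under the lowest control and above every 24 h induced array. The median difference was -1.20 over the histone genes and -0.18 over all genes.

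At 3 ng for 12 h, 19 histone genes were lower than the 24 h control, where 1.24% of all genes were called lower, and none was higher, where 1.57% were. All 19 were lower in the other 3 comparisons with 0 ng too, but all of these comparisons share the 0 ng arrays. The same overlap was not counted over all genes, and its share cannot exceed 1.24%. H4C13 had a difference of -1.05 ± 0.22 (adjusted p = 0.011), H2BC14 of -1.02 ± 0.24 (adjusted p = 0.024) and H3C2 of -0.96 ± 0.23 (adjusted p = 0.026, limma). H3C2 read 9.38, 10.23, 9.29 and 9.46, with the second array highest. The count of 19 rested on single arrays. Without 0 ng replicate 1, 2 or 4 it was 8, 5 and 4, and without 3 ng replicate 1, 3 or 4 it was 3, 4 and 8. Without 3 ng replicate 2, which has the highest median of all arrays, it was 35, and after quantile normalization it was 34, against 8.57% of all genes, with none higher, against 6.61%.

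Between the doses at 12 h, limma called 0 histone genes lower and 0 higher, where 0 and 0.0217% of all genes were called. At an unadjusted p under 0.05 there were 28 of 58, against 5.88% of all genes, and the median difference was -0.49, against -0.12 over all genes. The largest differences were -0.93 ± 0.29 for H3C1 and -0.91 ± 0.23 for H3C7, and the 5 ng arrays were below the 3 ng arrays without overlap for 5 genes (0.402% of all genes). Quantile normalization gave 11 called lower, against 0.424% of all genes, and none higher, against 2.32%.

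The 24 h arrays were also set against the 12 h arrays of the same dose. With no 0 ng group at 12 h, time itself and the length of induction cannot be told apart in these comparisons. At 3 ng, 41 of 58 histone genes were lower at 24 h than at 12 h, where 4.36% of all genes were called lower, and at 5 ng 33 were, where 3.55% were. At 3 ng none was higher, where 0.0706% of all genes were. After quantile normalization 41 were lower and 2 higher at 3 ng, against 6.06% and 9.92% of all genes, and 36 were lower and 2 higher at 5 ng, against 7.60% and 10.8%. The median changes were -1.32 and -1.05, against -0.22 and -0.08 over all genes. H3C2 fell by 2.35 ± 0.23 at 3 ng and 3.22 ± 0.23 at 5 ng, and H2BC14 by 2.51 ± 0.24 and 3.19 ± 0.24. H2AC6 differed little over this time, at -0.46 ± 0.18 and -0.04 ± 0.18, neither of which passed. H2BC21 rose by 0.77 ± 0.18 from 12 h to 24 h at 5 ng (adjusted p = 0.016, limma), where 0.424% of all genes were called higher. That call was lost without replicate 2 at 12 h or replicate 1 at 24 h. H2BC11 fell by 0.84 ± 0.17 at 3 ng and had a difference of 0.15 ± 0.17 at 5 ng.

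The difference between the time courses of the 2 doses was tested as an interaction, and limma called 0 histone genes and 0 of all genes in either direction. After quantile normalization it also called 0 histone genes, against 0.0652% of all genes lower and 0.00543% higher. At an unadjusted p under 0.05 there were 7 histone genes, against 2.12% of all genes. H2BC11 had the largest value at 1.00 ± 0.24 (adjusted p = 0.99), and H3C2 had -0.87 ± 0.33. A different course at the lower and higher dose was thus not detected for any histone gene.

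The genes that serve histone supply were described from 4 lists, with levels and changes on the log2 scale. Of 21 histone transcription and 3′ processing factors measured, 13 were lower at 3 ng and 12 at 5 ng after 24 h, where 23.0% and 23.5% of all genes were. The list medians were -0.52 and -0.54, against -0.23 and -0.24 over all genes. After quantile normalization 8 were lower at 3 ng, and 9 were lower and 1 higher at 5 ng, where 12.5%, 17.2% and 20.6% of all genes were. The medians were then -0.08 and -0.14. SLBP, the stem-loop binding protein, read 8.97, 8.73, 8.83 and 9.10 at 0 ng, 7.68, 7.73, 7.43 and 7.42 at 3 ng, and 7.21, 7.34, 7.09 and 7.28 at 5 ng. These 3 groups did not overlap. SLBP fell by 1.34 ± 0.17 and 1.68 ± 0.17. NPAT fell by 1.02 ± 0.20 and 1.50 ± 0.20, and CASP8AP2, which takes part in histone transcription and processing, by 1.27 ± 0.26 and 1.66 ± 0.26. ERI1, an exonuclease that trims the histone mRNA end, fell by 1.78 ± 0.22 at 5 ng. Among cleavage and polyadenylation factors, CPSF2, SYMPK and CPSF1 did not pass at 5 ng as deposited. CPSF2 was the gene called higher there after quantile normalization (0.28, adjusted p = 0.00013). CPSF3 and CSTF2 had means of 7.86 and 7.04 at 5 ng after 24 h, against 8.71 and 8.04 at 0 ng. Their 5 ng arrays lay below the control arrays with no overlap, as in 27.0% of all genes.

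Of 8 S phase kinases and E2F factors, 7 were called lower at 3 ng and 8 at 5 ng, where 23.0% and 23.5% of all genes were. CCNE2, a cyclin E, read 8.63, 8.38, 8.06 and 8.89 at 0 ng, 6.37, 6.19, 5.72 and 6.12 at 3 ng, and 4.41, 4.13, 4.10 and 4.88 at 5 ng. It fell by 2.39 ± 0.28 and 4.11 ± 0.28, and CCNA2, the cyclin of late S phase, by 2.78 ± 0.21 and 4.30 ± 0.21. CDC25A, a phosphatase that activates CDK2, fell by 3.01 ± 0.22 and CDK2 by 2.48 ± 0.20 at 5 ng.

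Histone chaperones, which escort new histones to DNA, were called lower in 19 of 22 cases at 3 ng and 18 of 22 at 5 ng, where 23.0% and 23.5% of all genes were, with medians of -0.97 and -1.14. After quantile normalization, 14 were lower at 3 ng, and 17 were lower and 1 higher at 5 ng, where 12.5%, 17.2% and 20.6% of all genes were. The medians were then -0.52 and -0.77. HJURP, the chaperone of the centromeric H3 variant, fell by 4.02 ± 0.20 at 5 ng, ASF1B by 3.93 ± 0.19, MCM2, a helicase subunit that also holds H3 and H4, by 3.05 ± 0.20, and CHAF1A, of the complex that deposits histones behind the replication fork, by 2.87 ± 0.18. ASF1A, the paralog of ASF1B, did not pass, and ATRX was the gene called higher at 5 ng after quantile normalization.

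Replication-independent histones and variants, which are made outside S phase as well, were called lower in 7 of 9 measured cases at 3 ng and 8 of 9 at 5 ng, where 23.0% and 23.5% of all genes were, with medians of -0.71 and -0.68. After quantile normalization 6 were lower at 3 ng and 8 at 5 ng, where 12.5% and 17.2% of all genes were, with medians of -0.30 and -0.38. H3-3B and H3-5 had close means, 10.66 and 10.63 at 0 ng and 10.07 and 9.95 at 5 ng. Whether their clusters report separate RNA was not tested. H2AX, which is phosphorylated at DNA breaks and gives both stem-loop and polyadenylated mRNA, fell by 1.72 ± 0.19 and 2.21 ± 0.19. H2AZ1 fell by 1.72 ± 0.18 at 5 ng, H2AZ2 by 1.27 ± 0.18 and the linker variant H1-10 by 0.93 ± 0.18. The medians of the 58 replication-dependent genes were -2.19 and -2.44, or -1.87 and -2.11 after quantile normalization, and the lists were not tested against each other.

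**Figure D5:**
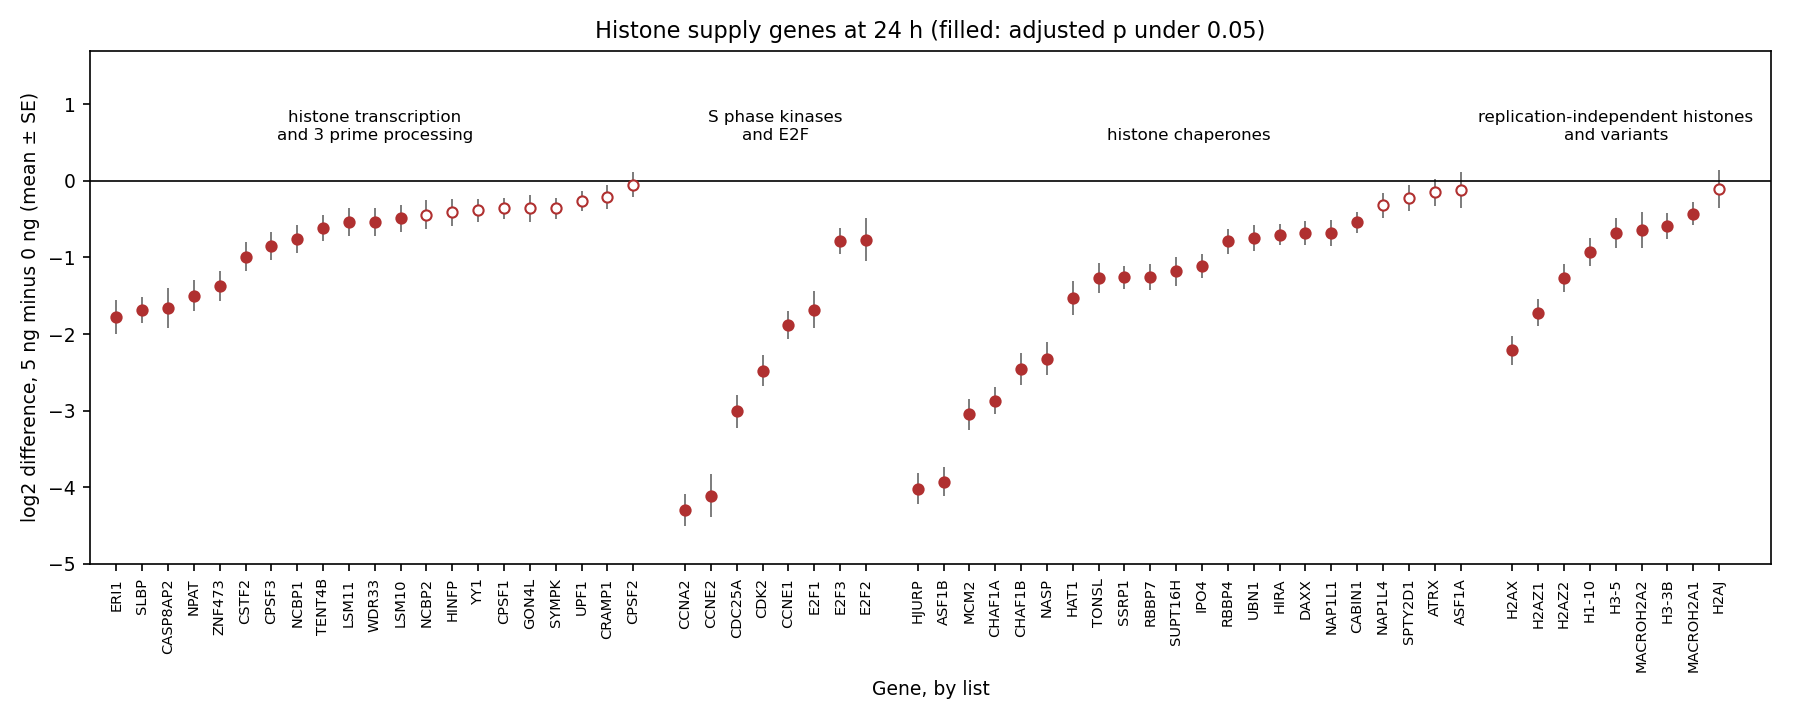
Log2 difference between 5 ng and 0 ng at 24 h (mean ± SE of the model, 4 arrays a group) for genes of histone supply, by list and size, with filled points for an adjusted p under 0.05. CCNA2, CCNE2, HJURP and ASF1B have the lowest values, and SLBP, NPAT and CASP8AP2 lie between -1.50 and -1.68.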

How the data were processed

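The deposited table holds 1 log2 value per transcript cluster and array for 20 arrays. The authors' steps are known only from the submitters' processing notes, which name GCOS, GCRMA, Affymetrix Power Tools and limma with no version, role or order. The sources used here do not give the scaling between arrays. There are no detection calls, so a dim gene may be at background.

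Of 33297 clusters, 19460 had 1 symbol in the platform annotation, and the brightest cluster stood for each of 18417 genes. Each histone gene had 1 cluster. A model with 5 group means was fitted to the deposited log2 values of all genes in limma 3.58.1 under R 4.3.3 (15 residual degrees of freedom, eBayes). A gene was called at an adjusted p under 0.05 (Benjamini-Hochberg, over all genes), and no p was adjusted over a list alone. Precision is limited by the number of arrays. The fit was tested on simulated data.

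The members, lists and rules were chosen with earlier results of these data known. The rule named, in each class, the 3 members with the largest called change at 5 ng and 24 h, and every member not called at both doses, called higher, or called between doses. It also named 4 members of each supply list, and SLBP, NPAT, CASP8AP2 and H2AX in any case. Other genes named were chosen after their values were seen. Some list genes are not analysed here. The head-to-head pairs (starts at most 1000 bases apart) were looked for after the data were seen. Alternatives tried were quantile normalization, arrays centred on their medians, a filter that dropped the dimmest 30% of genes, averaging a gene's clusters, limma's trend and robust options, a fit of the compared groups alone, a replicate block, and leaving out each array in turn.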

Additional observations from a re-analysis of the deposited data

Results flagged for a closer look

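Among 30 histone genes and 16 supply genes named, 230 groups of 4 arrays were checked for 1 array standing apart from the other 3, and 14 (6.09%) did, where chance alone flags about 5%. Among histone genes at 24 h, H2AC4 read 5.33 on the first 5 ng array against 5.91 to 5.94 on the others, and H2BC7 read 5.81 on the fourth against 4.95 to 5.03. H2AC14 read 4.32 on the fourth 0 ng array against 3.05 to 3.25. At 3 ng, H2BC12 read 7.67 on the fourth array against 7.95 to 8.0, and H4C7 read 1.14 on the first against 1.95 to 2.09. At 12 h, H3C7 read 8.63 on the second 3 ng array against 7.81 to 7.94, and H4C4 read 6.26 on the first 5 ng array against 7.04 to 7.19.

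Among supply genes, NPAT read 6.05 on the first array of 5 ng at 12 h against 6.36 to 6.40. CCNA2 read 5.55 on the second array of 5 ng at 24 h against 5.12 to 5.16. CDC25A stood apart in each 24 h group, at 8.82 on the fourth 0 ng array against 8.26 to 8.34, at 6.22 on the third 3 ng array against 6.42 to 6.45, and at 5.89 on the fourth 5 ng array against 5.25 to 5.30. CHAF1A read 9.07 on the fourth 0 ng array against 8.54 to 8.61, and H2AX read 6.98 on the second array of 3 ng at 24 h against 6.67 to 6.68.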

How the results depend on the processing

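No called change of a named gene turned its direction under any alternative run. The count of histone genes lower at 5 ng than at 3 ng after 24 h, 7 as deposited, was 12 with a replicate block, with only the groups compared, with centred arrays, without the dimmest 30% of genes, and with trend and robust options. It was 16 after quantile normalization and 4 to 7 with arrays left out. The count at 3 ng for 12 h, 19, was 34 after quantile normalization, 39 with centred arrays, 30 without the dimmest genes, 30 with trend and robust options, and 3 to 35 with arrays left out. The 12 h dose comparison went from 0 to 11 after quantile normalization and to 1 with trend and robust options, and was 0 to 0 with arrays left out. Counts with arrays left out were 46 to 47 and 44 to 45 for 3 ng and 5 ng against 0 ng at 24 h, 36 to 41 for 5 ng at 12 h, 34 to 45 and 30 to 34 for 24 h against 12 h, and 0 to 0 for the interaction.

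Class medians moved by more than the spread between replicates as follows. Quantile normalization gave -2.03 (H2A), -0.51 (H2B), -2.59 (H3) and -1.71 (H4) at 3 ng, and -2.43, -0.57, -3.11 and -2.24 at 5 ng. Centring gave -0.51 (H2B) and -1.81 (H4) at 3 ng, and -0.59 and -2.38 at 5 ng. With arrays left out, the only such move was that of H3 at 3 ng, to -2.66 without replicate 3 of 3 ng at 24 h. The medians at 3 ng then ran from -1.80 to -1.47 (H1), -2.47 to -2.24 (H2A), -0.84 to -0.70 (H2B), -3.08 to -2.66 (H3) and -2.21 to -1.95 (H4). Those at 5 ng ran from -1.91 to -1.58, -2.87 to -2.67, -0.95 to -0.73, -3.56 to -3.35 and -2.67 to -2.57. Apart from the settings' own construction, causes were not tested.

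The same replicate numbers appear in every group. Of 40 same-numbered pairs of arrays, 13 deviated together with a correlation over 0.1, in a range from -0.179 to 0.501. Of 20 arrays, 10 were closest to their own number. These values do not settle whether the numbers pair the arrays, and the main fit did not use the numbers. With the replicate block, 27 genes were lower at 3 ng for 12 h and 34 from 12 h to 24 h at 5 ng, and the other counts but that of the 24 h dose comparison stayed as deposited.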
